A study of Homo sapiens with 17 samples.

Results

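The 5 scrambled-guide control libraries of the series were compared with each other, 2 from the USP37 experiment and 3 from the HIF2a experiment, out of 17 libraries in all. All 17 come from 786-O, a human clear cell renal carcinoma line without functional VHL, and all were made from polyadenylated RNA. The controls, labelled USP37_sgscr (libraries numbered 2 and 3) and HIF2a_sgscr (libraries 1 to 3), were chosen by their labels and not by any measured value. Cells of every group had been infected with lentivirus from 293T cells and kept under blasticidin or puromycin, depending on the vector; the guides had been cloned into pLenti CRISPR-V2 puro, which also carries Cas9. The other 12 libraries carry HIF2a sg4, HIF2a sg6, USP37 sg3 or USP37 sg9, with 3 libraries each. The labels do not say whether replicates were separate cultures, whether cells were pools or clones, or when either experiment was done. The p-values below therefore measure the spread between these libraries, which may be technical, and a difference between the experiments cannot be told apart from a difference between the 2 controls.

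A scrambled guide directs Cas9 to no intended site, so both controls serve as the baseline against which a guide is read. In 786-O cells the lost VHL protein, part of a ubiquitin ligase, leaves HIF2A (gene EPAS1) stable in oxygen, where it pairs with ARNT and drives genes of glucose uptake, lipid storage and growth. The line is known to lack functional HIF1A protein. USP37 is a deubiquitinase.

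Levels are on the log2 scale of the deposited table, which had been variance-stabilised and corrected for batch by the authors, and a difference is always the mean of the USP37 control minus the mean of the HIF2a control. Depth is unknown, since no counts underlie these values in the form deposited. A gene was called where limma's Benjamini-Hochberg adjusted p was under 0.05 over 12484 tested genes, with the spread shared over all 17 libraries; 5051 genes were called, 40.5% of those tested, and 3347 without USP37 control library 3. An exact permutation test of 2 against 3 libraries cannot go below a two-sided p of 0.2 for a single gene. The deposited table had been centred so that libraries with the same replicate number have equal means for every gene; the USP37 control has no library 1, so that step was not balanced over the groups. HIF2a control library 1 lay nearer to the USP37 controls (median absolute difference 0.253 and 0.266) than libraries 2 and 3 did (0.306 to 0.320).

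The genes that the study targeted differed little between the controls. EPAS1 stood at 11.97, 12.01 and 11.76 in the 3 HIF2a control libraries and at 12.17 and 12.11 in the 2 USP37 control libraries, a difference of 0.22 (SE 0.13, adjusted p = 0.188). USP37 stood at 9.06, 9.13 and 8.68 against 9.33 and 9.15, a difference of 0.28 (SE 0.16, adjusted p = 0.167). Neither was called, although in both genes the libraries of the 2 controls did not overlap. The controls likewise did not overlap in 32% of all tested genes with the USP37 control higher and in 30.6% with it lower. In the libraries of their own guides, EPAS1 stood at 9.43 to 9.70 with sg4 and 10.11 to 10.48 with sg6. USP37 stood at 8.23 to 8.43 with sg3 and 8.04 to 8.30 with sg9. All of these values lay below both controls. Lower levels were not confined to a gene's own guides. USP37 differed by -0.44 between the HIF2a guides and their control (limma adjusted p = 0.00903). EPAS1 differed by -0.72 between the USP37 guides and theirs (adjusted p = 6.6e-05). Without HIF2a control library 3 the control differences of EPAS1 and USP37 were 0.147 and 0.143. EPAS1 was called at 0.389 once GC content and transcript length had been taken out (adjusted p = 0.00987), and USP37 at 0.365 without the 3 libraries farthest from their groups (adjusted p = 0.0444).

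The partners of EPAS1 did differ. HIF1A, the sister gene of EPAS1, stood at 10.99, 10.66 and 11.05 in the HIF2a control and at 11.62 and 11.80 in the USP37 control, a rise of 0.81 (SE 0.12, adjusted p = 2.5e-05). VHL transcript stood at 10.15, 10.20 and 10.20 against 9.44 and 9.67, a difference of -0.63 (SE 0.11, adjusted p = 0.000147). ARNT, which encodes the partner subunit of both HIF alpha proteins, was 0.33 higher (SE 0.12, adjusted p = 0.0267). As in the shares of tested genes given above, the controls did not overlap in these genes. ARNT was no longer called without HIF2a control library 3 (adjusted p = 0.0723). Its difference was 0.216 without USP37 control library 2.

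The distance between the controls was of the size of a guide's distance from its own control. The median absolute difference over genes was 0.272 between the group means of the controls, against 0.179 between sg4 and the HIF2a control, 0.193 between sg6 and the HIF2a control, 0.248 between sg3 and the USP37 control and 0.310 between sg9 and the USP37 control. Single control libraries differed by 0.119 to 0.160 within the HIF2a experiment, by 0.126 within the USP37 experiment and by 0.253 to 0.320 between experiments. Of the called genes, 2505 were higher in the USP37 control (20.1% of genes tested) and 2546 lower (20.4%). At least 1 log2 unit separated the controls in 191 called genes that were higher (1.53%) and 244 that were lower (1.95%). The controls did not overlap in 4001 genes with the USP37 control higher (32% of genes tested) and in 3818 with it lower (30.6%).

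The 10 largest rises were 4 overlapping entries of ribosomal RNA and 2 genes of the Y chromosome, both described further on, and LCP1, BCHE, FCAMR and SPP1. They were chosen among called genes whose controls do not overlap, so the lack of overlap in them was fixed in advance. LCP1, which encodes the actin-bundling protein L-plastin, stood at 8.30, 8.26 and 8.11 in the HIF2a control and at 10.94 and 10.82 in the USP37 control, a rise of 2.66 (SE 0.11, adjusted p = 1.03e-12). BCHE, butyrylcholinesterase, stood at 6.47, 6.28 and 6.16 against 8.69 and 8.78, a rise of 2.44 (SE 0.19, adjusted p = 1.25e-08). SPP1, the secreted phosphoprotein osteopontin, stood at 13.54, 13.08 and 13.33 against 15.46 and 15.50, a rise of 2.16 (SE 0.15, adjusted p = 3.27e-09). All 3 genes were higher in each USP37 control library than in any HIF2a control library, by over 1 log2 unit. FCAMR, an Fc receptor for IgA and IgM, rose by 2.36 (SE 0.16), from 9.24 to 9.52 in the HIF2a control to 11.75 and 11.73. Next to these, EPCAM, an epithelial adhesion protein, stood at 6.45, 6.25 and 6.23 against 8.01 and 8.53, a rise of 1.96 (SE 0.17, adjusted p = 4.47e-08). GDF15, a secreted stress-response cytokine, stood at 8.97, 8.82 and 8.92 against 10.999 and 10.934, a rise of 2.06 (SE 0.19, adjusted p = 8.08e-08). In EPCAM and GDF15 the controls did not overlap either, as in 32% of tested genes with the USP37 control higher. In bulk RNA a higher level can mean more cells that express a gene or more RNA per cell, and the 2 cannot be told apart.

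The 10 largest falls, chosen by the same rule, were IGFBP5, IFI6, UNC5B, FLG, SPN, PDPN, COL7A1, LOC101448202, HS6ST2 and GLUL. IGFBP5, a secreted binding protein for insulin-like growth factors, stood at 9.01, 9.50 and 9.35 in the HIF2a control and at 5.64 and 6.24 in the USP37 control, a difference of -3.34 (SE 0.20, adjusted p = 4.1e-10). The USP37 control values lie close to the floor of 5.14 on this scale, where differences are flattened. IFI6, a mitochondrial protein induced by interferon, stood at 11.29, 11.12 and 11.71 against 8.28 and 8.00, a level that fell by 3.24 (SE 0.20, adjusted p = 5.27e-10). UNC5B, a netrin receptor, stood at 9.77, 10.57 and 10.06 against 6.96 and 7.27, a level that fell by 3.02 (SE 0.19, adjusted p = 6.18e-10). FLG, filaggrin, a protein of cornified epithelium, stood at 11.98, 12.20 and 12.03 against 9.10 and 9.19, a level that fell by 2.93 (SE 0.20, adjusted p = 1.95e-09). Each of the 4 genes was over 2 log2 units lower in both USP37 control libraries than in any HIF2a control library.

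PDPN, podoplanin, a mucin-like membrane glycoprotein, stood at 10.85, 10.88 and 11.12 against 8.01 and 8.33, a difference of -2.78 (SE 0.15, adjusted p = 1.41e-10). COL7A1, the collagen of anchoring fibrils, stood at 14.08, 14.65 and 14.44 against 11.96 and 11.78, a difference of -2.53 (SE 0.19, adjusted p = 9.04e-09). SPN, the sialoglycoprotein CD43, differed by -2.84, HS6ST2, a heparan sulfate sulfotransferase, by -2.44, and GLUL, glutamine synthetase, by -2.29. No overlap between the controls was part of the rule that chose these 5 genes. GLUL spread most, at 5.46 and 6.67 in the USP37 control against 8.20 to 8.51. LOC101448202, an uncharacterised locus, stood at 7.65, 7.69 and 7.87 in the HIF2a control and at 5.24 and 5.22 in the USP37 control, at the floor of the scale, so its difference has no exact size. SPN and LCP1 are known from leukocytes, so the leukocyte markers are given here: none of 10, PTPRC among them, was above the filter on low values, and their mean level ranged from 5.19 to 5.45 in the HIF2a control and from 5.25 to 5.59 in the USP37 control.

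**Figure D1:**
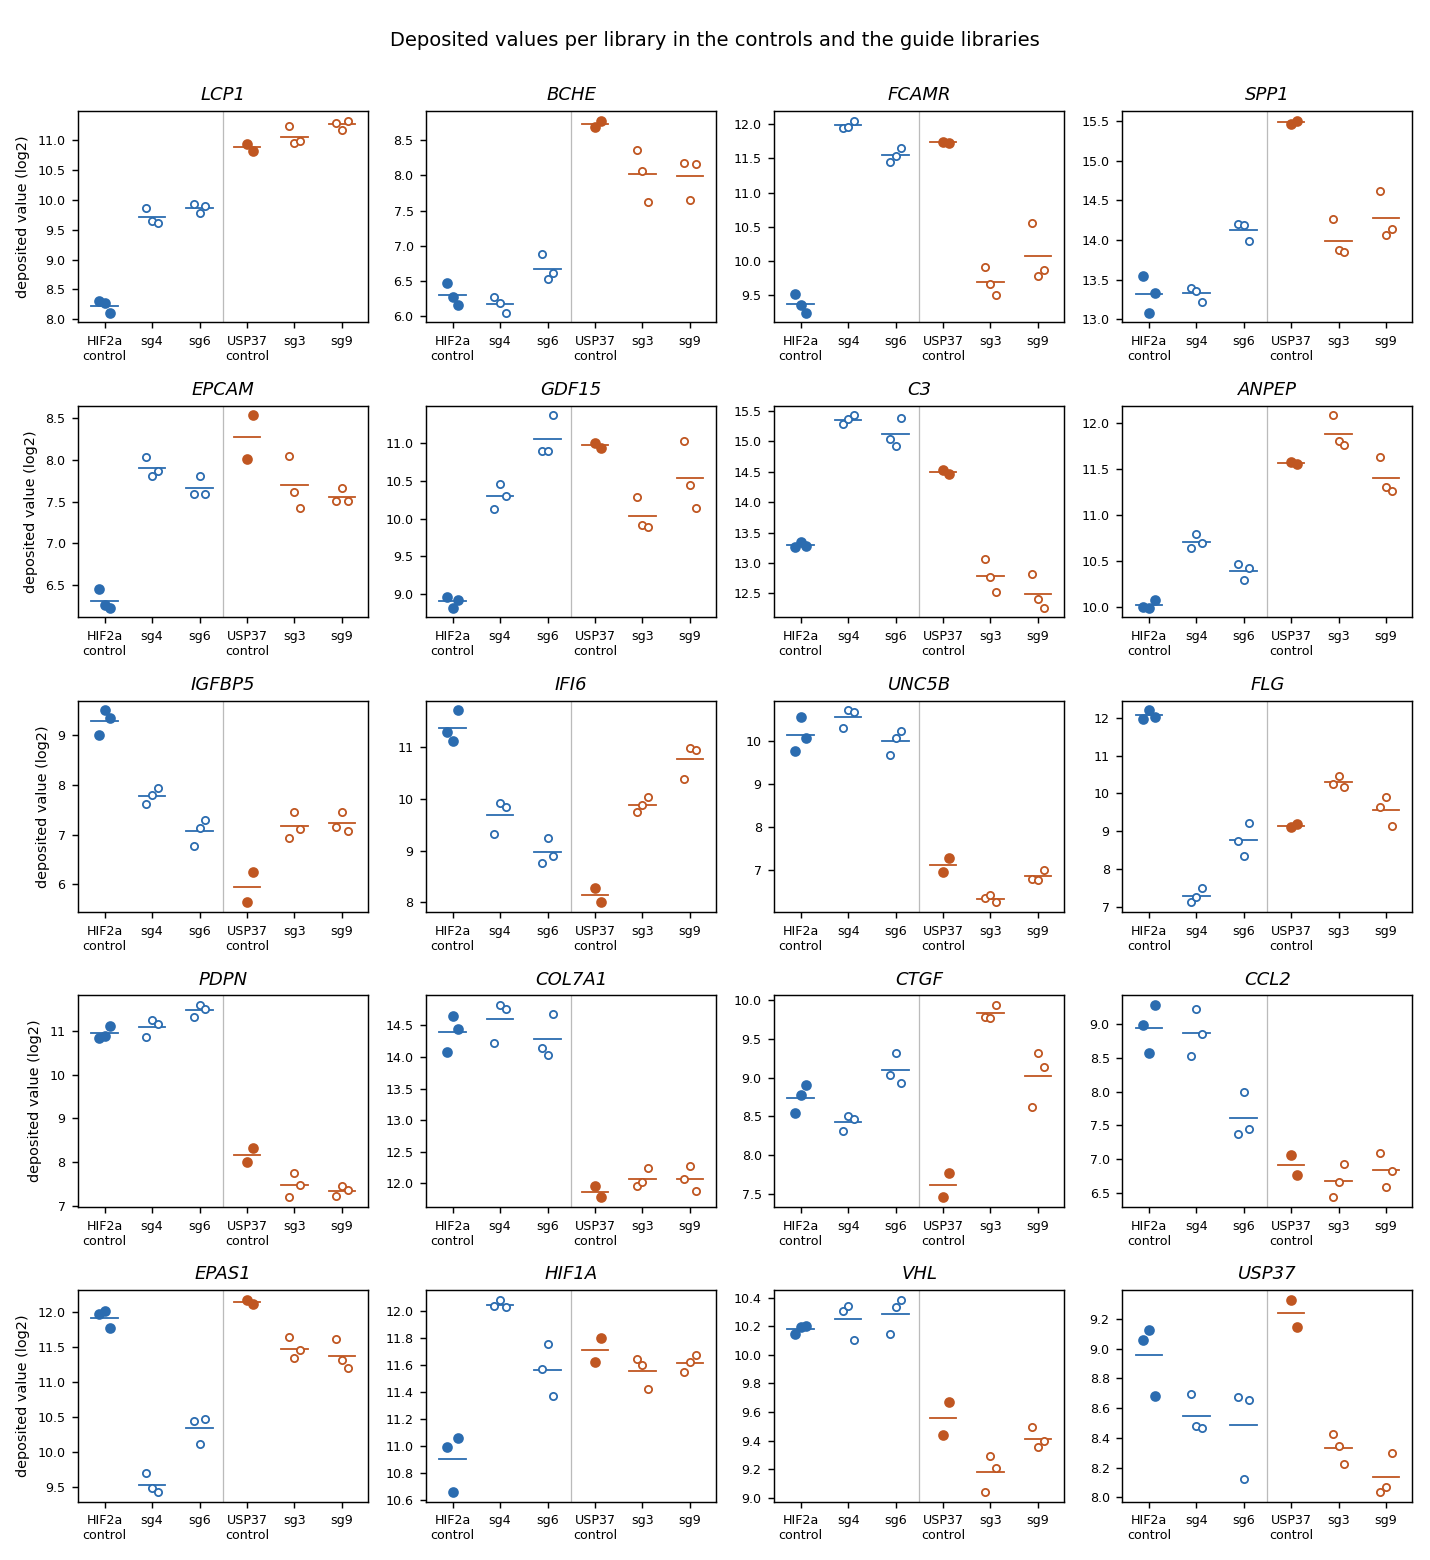
Deposited log2 values (vertical axes) of 20 genes in every library of the 6 groups, with filled points for controls, open points for guide libraries, blue for the HIF2a experiment, orange for the USP37 experiment and a line at each group mean. LCP1, BCHE, UNC5B, PDPN and COL7A1 separate the experiments in all 17 libraries, while FCAMR, C3, IFI6 and FLG separate the controls one way and the means of the guide libraries the other.

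Gene lists were read against the background of all tested genes, of which 20.1% were called higher and 20.4% lower, with a median difference of 0.00596. Complement and acute phase genes were mostly higher: 10 of 16 tested members were called higher and 2 lower, with a median of 0.585. LCN2, the iron-siderophore-binding protein lipocalin 2, stood at 7.84, 7.28 and 7.69 in the HIF2a control and at 9.59 and 9.56 in the USP37 control, a rise of 1.97 (SE 0.19, adjusted p = 1.43e-07). C3, the central complement component, stood at 13.27, 13.35 and 13.27 against 14.53 and 14.46, a rise of 1.20 (SE 0.15, adjusted p = 4.6e-06). PIGR, which carries polymeric immunoglobulins across epithelium, rose by 1.21, and SERPINA1, the elastase inhibitor alpha-1-antitrypsin, by 0.99. The complement regulators CD55, CD46 and CD59 rose too (0.90, 0.53 and 0.39), while CFB and C1S, an activating factor and a protease of the cascade, differed by -0.73 and -0.53. Another 8 of the 24 listed genes did not pass the filter on low values. Only 1 member was called lower without USP37 control library 2.

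Renal tubular genes also leaned upwards, with 12 of 21 tested members higher, 2 lower and a median of 0.541. ANPEP, aminopeptidase N of the brush border, stood at 9.99, 9.99 and 10.07 in the HIF2a control and at 11.58 and 11.56 in the USP37 control, a rise of 1.55 (SE 0.11, adjusted p = 5.34e-09). MME, neprilysin, rose by 1.37 (SE 0.18, adjusted p = 5.24e-06), from 7.73 to 7.93 in the HIF2a control to 9.26 and 9.16. FXYD2, the gamma subunit of the renal sodium pump, rose by 1.67 (SE 0.24); its reads can overlap those of the FXYD6-FXYD2 readthrough gene, which rose by 1.90, so the values are not independent. DPP4, GGT1 and CDH16, membrane enzymes and a cadherin of the tubule, rose by 0.94, 0.85 and 0.83. The lineage factor PAX2 rose by 0.64, whereas its relative PAX8 differed by -0.33. Without either USP37 control library, 1 renal gene was called lower.

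Mitosis, stress, histone and replication genes are given next. Of 31 G2/M and mitosis genes, 12 were higher and 1 lower, with a median of 0.192; NUSAP1, a spindle protein, stood at 11.29, 11.02 and 11.16 against 12.20 and 12.24, a rise of 1.06 (SE 0.12, adjusted p = 7.49e-07), and CCNB2, cyclin B2, rose by 0.74. Without USP37 control library 3, 7 mitosis genes were called higher, the 1 lower gene lost its call without HIF2a control library 2 or 3 or either USP37 control library, and the median was 0.0876 with GC content and length taken out. Of 24 genes of the unfolded protein and integrated stress responses, 10 were higher, with a median of 0.152. ATF4, the transcription factor of the integrated stress response, rose by 0.66 (SE 0.12), and DDIT3, which encodes CHOP, by 0.67 (SE 0.19). Without USP37 control library 2 only 3 of these genes were called higher, and DDIT3 was not (adjusted p = 0.0579). Of 6 tested replication-dependent histone genes 4 were higher, and 2 with the stricter filter. Another 6 listed histone genes did not pass the filter on low values. Of those called, the linker histone HIST1H1E rose most, by 1.42 (SE 0.28). It stood at 5.50, 5.55 and 5.75 in the HIF2a control, near the floor, against 6.63 and 7.40. HIST1H1E passed the filter only through the libraries of the USP37 experiment, so its difference has no exact size. DNA replication genes were split, 10 higher and 7 lower of 41, from PCNA, the sliding clamp, at 0.65 to POLD1, a polymerase delta subunit, at -1.13. Of these, 5 were higher without USP37 control library 3; 2 were lower without USP37 control library 2 and 4 without HIF2a control library 3.

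YAP/TAZ targets stood lowest among the lists, with 11 of 22 tested members called lower, 2 higher and a median of -0.39. CTGF, a secreted matricellular protein and a standard readout of YAP, stood at 8.54, 8.78 and 8.91 in the HIF2a control and at 7.46 and 7.78 in the USP37 control, a difference of -1.12 (SE 0.17, adjusted p = 2.67e-05). Its relative CYR61 differed by -0.94 (SE 0.16, adjusted p = 9.81e-05), from 11.5 to 12.1 in the HIF2a control to 10.7 and 10.8. FJX1, a secreted regulator of Fat and Dachsous cadherin signalling, differed by -1.25 and the receptor kinase AXL by -1.11. The 2 members that rose were NT5E, an ectonucleotidase, at 0.94 and IGFBP3, another binding protein of insulin-like growth factors, at 0.63.

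NF-kB targets leaned downwards as well, 12 of 25 lower and 3 higher, with a median of -0.269. CCL2, a monocyte chemokine, stood at 8.99, 8.57 and 9.28 against 7.07 and 6.76, a difference of -2.03 (SE 0.23, adjusted p = 9.52e-07). The cytokines CSF2, LIF and CXCL8 differed by -0.995, -0.88 and -0.85, the adhesion molecule ICAM1 by -0.76, and the pathway's own RELB and NFKB2 by -0.72 and -0.55. The inhibitor NFKBIA rose by 0.61, BIRC3, a ubiquitin ligase that limits cell death, by 0.70 and SOD2, mitochondrial superoxide dismutase, by 0.53. With GC content and length taken out, 13 were lower and 5 higher.

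Interferon response genes were uneven. Of 31 tested, 10 were lower and 2 higher, yet the median of -0.00466 lay close to that of all genes; it was -0.0784 without HIF2a control library 3 and 0.0703 without USP37 control library 3. Beside IFI6, the antiviral enzyme RSAD2 stood at 6.77, 6.85 and 7.22 against 5.96 and 5.28, a difference of -1.33 (SE 0.18, adjusted p = 7.36e-06). OAS2, a sensor of double-stranded RNA, differed by -1.25, BST2, the virus tether tetherin, by -1.22, OAS3 by -1.05, the ubiquitin-like ISG15 by -0.91 and STAT2, which carries the interferon signal to the nucleus, by -0.82. IFITM2 and IFIT1 were the 2 called higher, at 0.45 and 0.32, and lost the call without HIF2a control library 3 or either USP37 control library.

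Promoters are shown here for interferon genes that fell and for IFIT1, which was called higher, because they share a motif, and for CTGF as the YAP target. IFIT1 lost its call without single libraries, as given above. It was the only higher interferon gene with a promoter entry, so the motif cannot be set against the direction of change. They are the 250 bases before the gene start from RefSeq (GRCh38.p14), 5′ to 3′ on the gene's strand; 10063 of the tested genes matched an entry. Capitals mark the interferon-stimulated response element (GAAA, any 2 bases, GAAA), or in CTGF the TEAD site GGAATG, searched on both strands; overlapping matches run together.
IFI6: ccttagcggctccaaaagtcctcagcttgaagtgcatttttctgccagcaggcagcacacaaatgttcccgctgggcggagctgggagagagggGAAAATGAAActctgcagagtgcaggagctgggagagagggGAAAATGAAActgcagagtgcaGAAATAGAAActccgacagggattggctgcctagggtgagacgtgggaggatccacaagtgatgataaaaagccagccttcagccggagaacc
BST2: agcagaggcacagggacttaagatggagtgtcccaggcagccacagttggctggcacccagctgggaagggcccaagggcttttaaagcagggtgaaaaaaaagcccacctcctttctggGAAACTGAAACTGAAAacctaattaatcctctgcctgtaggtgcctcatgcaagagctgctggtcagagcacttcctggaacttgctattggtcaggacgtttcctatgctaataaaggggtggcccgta
ISG15: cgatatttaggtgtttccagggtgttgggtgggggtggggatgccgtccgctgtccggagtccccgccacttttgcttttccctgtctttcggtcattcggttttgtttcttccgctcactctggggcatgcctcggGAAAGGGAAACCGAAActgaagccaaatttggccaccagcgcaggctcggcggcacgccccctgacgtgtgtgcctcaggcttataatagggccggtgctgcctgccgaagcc
IFIT1: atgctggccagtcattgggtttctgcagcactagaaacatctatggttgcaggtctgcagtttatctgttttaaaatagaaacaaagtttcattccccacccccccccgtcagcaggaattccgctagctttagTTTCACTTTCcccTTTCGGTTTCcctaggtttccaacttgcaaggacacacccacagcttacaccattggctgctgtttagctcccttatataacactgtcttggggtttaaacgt
CTGF: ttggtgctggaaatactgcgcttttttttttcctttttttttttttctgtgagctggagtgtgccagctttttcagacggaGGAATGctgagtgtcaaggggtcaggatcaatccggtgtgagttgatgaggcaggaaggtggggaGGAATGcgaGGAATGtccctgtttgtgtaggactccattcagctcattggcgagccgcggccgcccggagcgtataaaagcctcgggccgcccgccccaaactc
These windows lie at chr1:27672193-27672442 on the minus strand (IFI6), chr19:17405631-17405880 on the minus strand (BST2), chr1:1013247-1013496 on the plus strand (ISG15), chr10:89392373-89392622 on the plus strand (IFIT1) and chr6:131951373-131951622 on the minus strand (CTGF, named CCN2 in RefSeq). IFI6 held 3 matches, starting 156, 115 and 93 bases before the gene start, and BST2, ISG15 and IFIT1 held 2 each. The element was present in 14 of 24 interferon genes with an entry, in 5 of the 9 of these that were lower, and in 2.32% of all tested genes with an entry. Among all genes called lower 2.77% held it, and among all called higher 1.84%. CTGF held 3 TEAD sites, 169, 104 and 95 bases before the start; 6 of 16 YAP/TAZ targets with an entry held the site, against 9.32% of all tested genes, 9.49% of those lower and 9.84% of those higher.

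Signalling, matrix and epithelial lists changed in both directions. Of 31 growth factor genes 8 were higher and 10 lower: IGF2, insulin-like growth factor 2, rose by 1.69 (SE 0.15), from 6.91 to 7.43 in the HIF2a control to 8.79 and 8.85, and FGF5 by 1.07, while AREG, an EGF receptor ligand, differed by -1.01 and IGFBP4 by -0.73. Of 25 TGF-beta and BMP genes 4 were higher and 8 lower. INHBA, the activin subunit, stood at 10.81, 11.19 and 11.18 against 9.21 and 9.23, a difference of -1.84 (SE 0.16, adjusted p = 3.44e-08); the activin antagonist FSTL3 differed by -1.07, the ligands TGFB1 and TGFB2 by -0.65 and -0.75 and the feedback inhibitor SMAD7 by -0.85. BMP4 and the BMP target genes ID2 and ID3 rose by 1.06, 1.42 and 0.40. The higher genes numbered 5 and 2 in these lists without USP37 control library 2.

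Of 30 mesenchymal and matrix genes 4 were higher and 8 lower. MMP1, interstitial collagenase, stood at 6.05, 5.93 and 6.07 against 7.92 and 7.61, a rise of 1.75 (SE 0.14, adjusted p = 1.75e-08), and MXRA5, a matrix remodelling protein, rose by 1.85. COL6A3, COL1A1 and COL6A1, chains of collagens VI and I, differed by -1.01, -0.93 and -0.61. Leaving out USP37 control library 3 left 4 matrix genes lower. Of 22 epithelial genes 8 were higher and 7 lower (12 and 5 with GC content and length taken out), and their median of 0.182 became 0.371 under that setting and -0.00604 with the stricter filter: KRT19 and KRT81 rose by 1.35 and 1.28 with EPCAM, while KRT8 and KRT18, the keratin pair of simple epithelia, differed by -0.51 and -0.50; without USP37 control library 2, 4 epithelial genes were lower, and KRT18 was not (adjusted p = 0.0631). Of 41 semaphorin, ephrin and tetraspanin genes 12 were higher and 13 lower, from the tetraspanin TSPAN15 at 1.48 to CD82, also a tetraspanin, at -0.97; their median of -0.0545 became 0.199 with GC content and length taken out.

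Metabolic lists were split too. HIF2A targets counted 9 higher and 3 lower of 27, with a median of 0.0574. PLIN2, which coats lipid droplets, stood at 11.26, 11.11 and 10.92 in the HIF2a control and at 13.004 and 13.001 in the USP37 control, a rise of 1.91 (SE 0.15, adjusted p = 1.79e-08), and ANGPTL4, an inhibitor of lipoprotein lipase, rose by 1.53 (SE 0.17). CCND1, cyclin D1, and PTHLH, parathyroid hormone-like hormone, differed by -0.61 and -0.86; VEGFA and SLC2A1 were tested and not called. Without USP37 control library 2, 5 of these targets were called higher; 5 were lower with the controls alone, and 10 were higher and 6 lower, with a median of 0.134, once GC content and length had been taken out. In fatty acid metabolism 8 of 25 were higher and 8 lower: HILPDA, another lipid droplet protein, rose by 1.18 and ACSL4, an acyl-CoA synthetase, by 1.11, whereas FASN, fatty acid synthase, differed by -1.10 (-0.615 with GC content and length taken out) and CPT1A, the gate of mitochondrial fatty acid import, by -0.62. Lower genes of this list numbered 4 without USP37 control library 2, and without library 3 there were 5 higher and 5 lower. Of 25 glycolysis genes 9 were higher and 7 lower, from PFKFB3, a regulator of glycolytic flux, at 0.89 to SLC16A3, a lactate exporter, at -1.36.

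The remaining lists moved in few members or in both directions. Of 26 p53 targets 9 were lower and 4 higher, with a median of -0.236; PLK2, a kinase, differed by -1.39, BBC3 and BAX, pro-apoptotic genes, by -0.69 and -0.74, and CDKN1A, the cell cycle inhibitor p21, by -0.33, while GDF15 rose. BAX was not called without HIF2a control library 3 (adjusted p = 0.0761), without USP37 control library 2 (0.0579) or 3 (0.0681), or with chromosome medians taken out (0.0675). Class I presentation genes counted 5 higher and 3 lower of 16, with B2M, the invariant light chain, at 1.19 and the peptide transporter TAP2 at -1.13. NRF2 targets counted 4 higher and 2 lower of 22, the aldo-keto reductase AKR1C3 at 1.05 among the former. Cholesterol genes counted 5 and 7 of 25, and immediate early genes 3 and 7 of 24, EGR1 among the latter at -0.83. Ribosomal protein genes (8 and 5 of 52) and respiratory chain genes (12 and 6 of 48) had median differences of 0.0939 and 0.182. With GC content and length taken out these were 8 higher and 11 lower with a median of 0.0136, and 13 and 11 with a median of 0.0858; without the 3 libraries farthest from their groups 10 ribosomal protein and 14 respiratory chain genes were lower. Single libraries decided part of these counts. Without USP37 control library 2, 2 p53 targets and 3 presentation genes were called higher, and 1 NRF2 target and 1 ribosomal protein gene lower. Without USP37 control library 3 the counts of higher genes were 2 for p53 targets, 2 for NRF2 targets, 2 for cholesterol genes, 3 for ribosomal protein genes and 6 for respiratory chain genes, 4 cholesterol genes were lower, and the lower NRF2 targets lost their calls. Without HIF2a control library 1, 1 NRF2 target was lower; without library 2, 2 cholesterol and 7 respiratory genes were higher and 8 ribosomal protein genes lower; without library 3, 3 cholesterol genes were higher and 3 ribosomal protein genes lower.

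**Figure D2:**
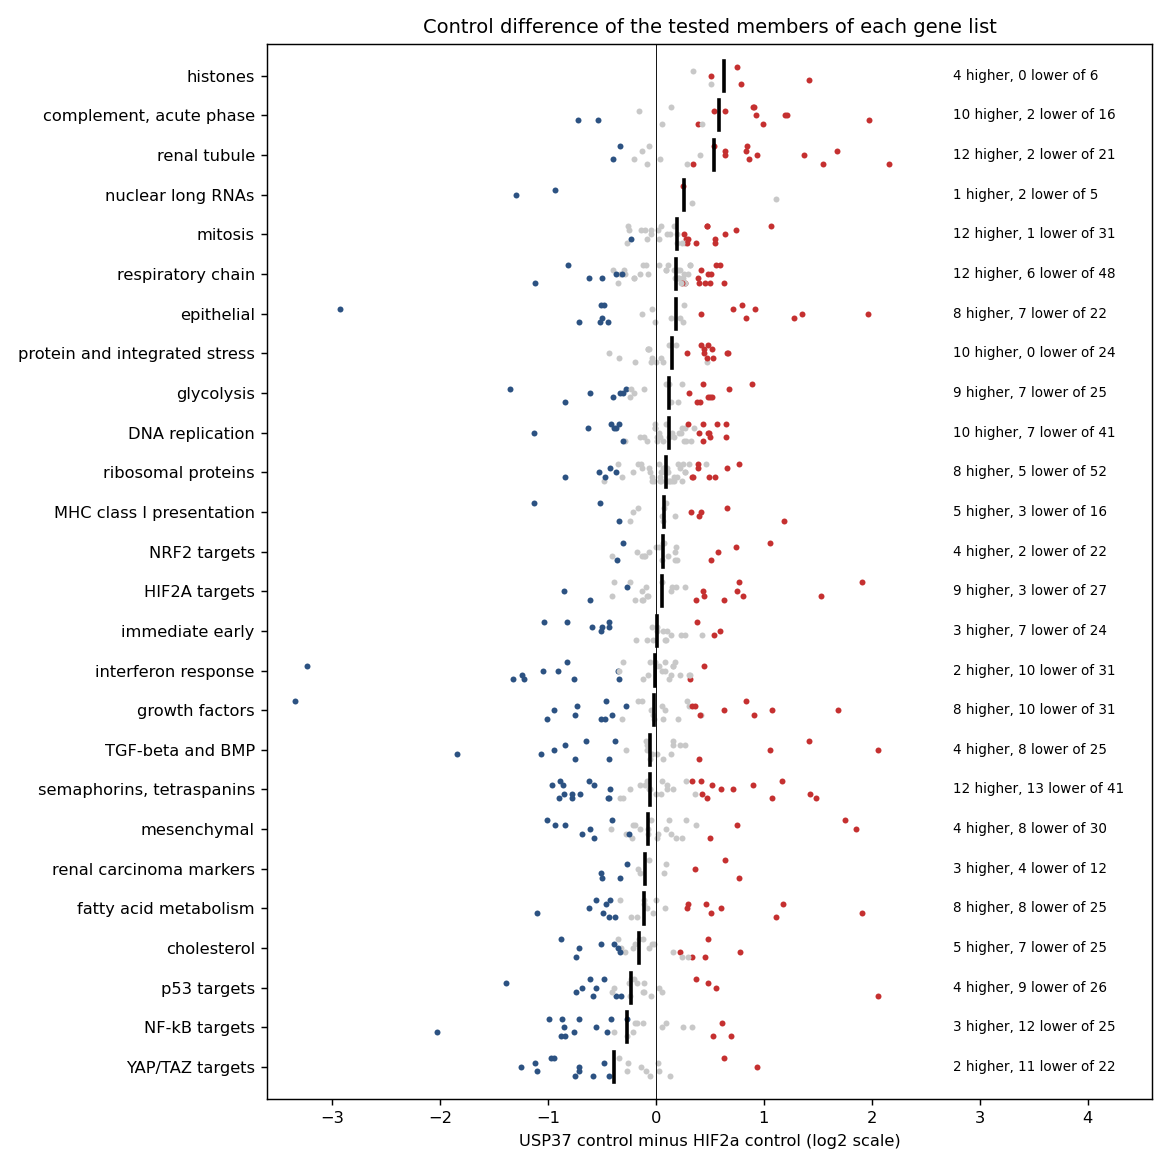
Control difference (horizontal axis, log2 scale) of each tested member of 26 gene lists, in red where called higher, blue where called lower and grey where not called, with a black bar at each list's median. Histone, complement and acute phase, and renal lists have the highest medians, 0.632, 0.585 and 0.541, and YAP/TAZ targets the lowest, -0.39. The histone median rests on 6 tested genes, with HIST1H1E near the floor in the HIF2a control.

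The guide libraries of the 2 experiments show whether a control difference extends to cells that carry other guides. The guide-library difference, the mean of USP37 sg3 and sg9 minus the mean of HIF2a sg4 and sg6, uses no control library, but it includes the effects of the targeting guides. It was called in 8992 genes (72%), 4564 of them higher in the USP37 experiment (36.6%) and 4428 lower (35.5%). As a measure of spread between guides to 1 gene, sg6 and sg4 differed in 1151 genes (9.22%) and sg9 and sg3 in 3848 (30.8%). Of the 2505 genes higher in the USP37 control, 1596 (63.7%; 12.8% of genes tested) were also higher between the guide libraries, 404 (16.1%) were lower and 505 (20.2%) were not called. Of the 2546 genes lower in the USP37 control, 1753 (68.9%; 14% of genes tested) were also lower, 267 (10.5%) were higher and 526 (20.7%) were not called. Across the 12484 genes the 2 differences correlated with Pearson's r of 0.455 and Spearman's rho of 0.473, given as a description because genes are not independent; Pearson's r was 0.343 with GC content and length taken out.

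A smaller group of genes separated the experiments in all 17 libraries, 1037 with the USP37 experiment higher (8.31% of genes tested) and 1129 with it lower (9.04%). LCP1 and BCHE were among the former, with guide-library differences of 1.37 and 1.59. Both were smaller than the control differences, by 1.28 and 0.85 (limma's test of one against the other, adjusted p = 1.65e-07 and 0.00513). LCP1 means were 9.71 and 9.87 in sg4 and sg6 and 11.06 and 11.27 in sg3 and sg9. UNC5B, PDPN, SPN, COL7A1 and GLUL were among the latter, with guide-library differences of -3.68, -3.86, -2.54, -2.37 and -2.29. The test of the control difference against the guide-library difference was not passed for COL7A1, SPN and GLUL. For COL7A1 the control difference minus the guide-library difference was -0.15 (SE 0.23, adjusted p = 0.625). For PDPN and UNC5B the test was passed, the guide libraries lying 1.08 and 0.66 further apart (adjusted p = 8.1e-05 and 0.0229). B2M, ANPEP, MME, ID2, CCL2, SLC16A3, POLD1 and VHL also separated the experiments in every library.

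Other large control differences were absent or opposite between the guide libraries. The test of the control difference against the guide-library difference was passed by 4825 genes (38.6%), among them 1136 of the 2505 higher and 1087 of the 2546 lower. IFI6 had means of 11.37 ± 0.30 in the HIF2a control (SD, n = 3), 9.70 in sg4 and 8.97 in sg6, against 8.14 ± 0.20 in the USP37 control (SD, n = 2), 9.89 in sg3 and 10.77 in sg9. FLG had means of 12.07 ± 0.12, 7.29 and 8.76 against 9.14 ± 0.06, 10.29 and 9.57 in the same order. In both genes the HIF2a control was the highest group of its experiment and the USP37 control the lowest of its own, so the guide-library differences, 1.00 and 1.90, had the opposite sign. CPE, a peptide-processing carboxypeptidase, differed by -2.10 between the controls and by 1.13 between the guide libraries. For IGFBP5 and MAGEA12, a cancer-testis antigen, the guide-library differences of -0.22 and 0.07 were not called. MAGEA12 had means of 5.71 in sg4, 5.84 in sg6, 5.65 in sg3 and 6.05 in sg9. These lie near the floor of 5.14, where differences are flattened. MAGEA12 passed the filter on low values only through the HIF2a control, with a mean of 7.67 against 5.90 in the USP37 control. Its guide libraries therefore cannot show whether the control difference extends to them.

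Rises of this kind ran the other way round. FCAMR had means of 9.37 in the HIF2a control, 11.99 in sg4 and 11.55 in sg6, against 11.74 in the USP37 control, 9.70 in sg3 and 10.06 in sg9, so that sg4, sg6 and the USP37 control were the 3 highest groups. LCN2 (7.60, 9.50 and 9.65 against 9.58, 7.15 and 7.08) and C3 (13.30, 15.36 and 15.12 against 14.49, 12.78 and 12.50) had the same 3 groups highest. EPCAM, GDF15 and FXYD6-FXYD2 had guide-library differences of -0.16, -0.39 and -0.37, the first of them not called. By list, complement and acute phase genes had a median control difference of 0.585 and a median guide-library difference of -1.17, with 14 of 16 members passing the test between them. Renal genes had medians of 0.541 and -0.386 (15 of 21 passing), YAP/TAZ targets -0.39 and 0.162 (14 of 22), NF-kB targets -0.269 and -0.553 (16 of 25), and mitosis genes 0.192 and 0.324 (9 of 31).

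The differences of either guide pair from its own control use the same control libraries as the control difference, so they are set side by side only as values. They were called in 3819 genes for HIF2a (30.6%) and in 5525 for USP37 (44.3%). For IFI6 the HIF2a guides stood at -2.04 from their control and the USP37 guides at 2.19 from theirs. For FLG these values were -4.05 and 0.78, for CPE -4.44 and -1.21, for FCAMR 2.40 and -1.86, for LCN2 1.97 and -2.47 and for IGF2 3.15 and 0.31. For UNC5B and COL7A1, by contrast, they were 0.14 and -0.52, and 0.05 and 0.20, all smaller than the differences between the controls.

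**Figure D3:**
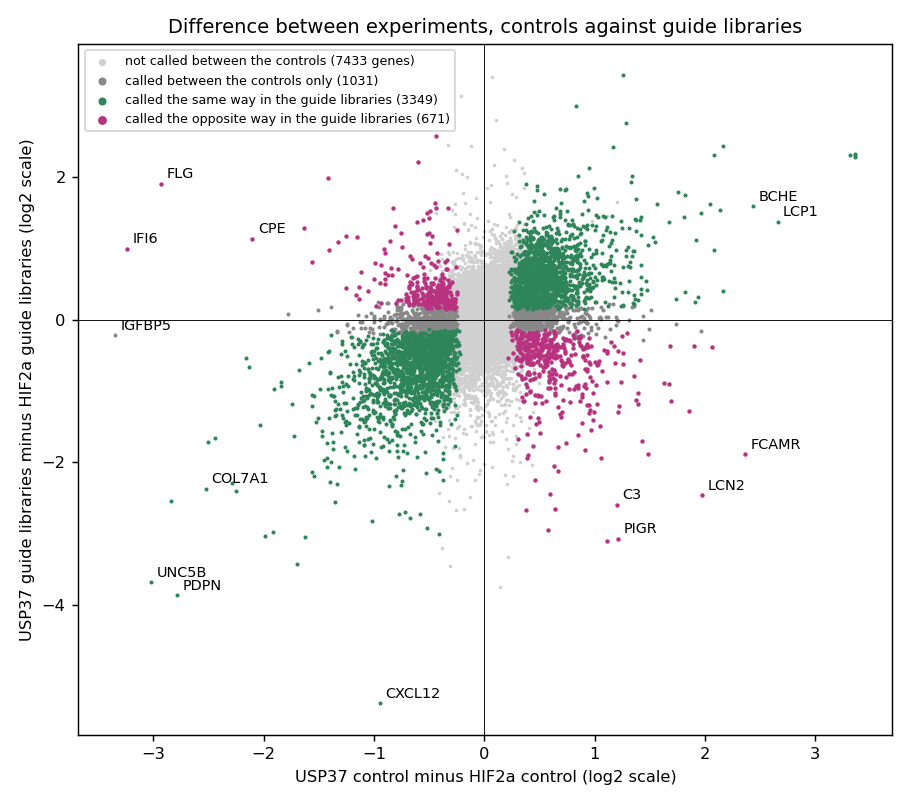
Control difference (horizontal axis) against guide-library difference (vertical axis), both on the log2 scale, for 12484 genes, coloured by whether the guide-library difference was called the same way, the opposite way or not. Most called genes lie in the lower left and upper right, and FLG, IFI6, CPE, FCAMR, LCN2, C3 and PIGR lie in the opposite corners.

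Genes of the Y chromosome were higher in the USP37 control without exception: all 11 that were tested were called higher, with differences of 0.68 (PRKY) to 2.17 (RPS4Y1), a median of 1.81, and all 11 were also higher between the guide libraries (median 1.49). Among the largest were the translation gene RPS4Y1, the deubiquitinase USP9Y at 2.13, the RNA helicase DDX3Y at 1.96 and the histone demethylase UTY at 1.81. The autosomes had medians between -0.233 (chromosome 19, 57 higher and 321 lower of 854) and 0.239 (chromosome 13, 76 higher and 9 lower of 207). Chromosome 14 had a median of 0.231 (149 higher and 42 lower of 405) and a median guide-library difference of 0.0546, chromosome 15 had medians of 0.164 and 0.171, and chromosome 7 of 0.132 and 0.172.

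Within chromosomes, neighbouring genes shifted together. Tested genes were put in RefSeq order and divided into 303 blocks of about 40, and the median difference per block was taken after GC content and transcript length had been removed; this division was chosen after the values had been seen, and the medians are descriptive. Chromosome 1 changed sign midway. Each of its first 17 of 30 blocks, 689 genes from WASH7P to MAN1A2 on the short arm, had a negative median, from -0.286 to -0.0791, with 237 genes called lower and 61 higher. Each of its last 12 blocks, 487 genes from SF3B4 to PGBD2 on the long arm, had a positive median, from 0.11 to 0.197, with 172 called higher and 45 lower. The block between them, GDAP2 to HIST2H2BE, had a median of 0.00902. The guide libraries gave -0.26 to -0.0234 and -0.0204 to 0.452 over the same blocks.

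Runs of at least 5 such blocks with medians of at least 0.05 in one direction were found on other chromosomes too. The whole of chromosome 14, 10 blocks, had medians of 0.106 to 0.327, and 9 of 10 blocks of chromosome 15 had medians of 0.0589 to 0.296. On chromosome 7 the first 8 of 15 blocks, FAM20C to BET1, had medians of 0.11 to 0.423, with 138 genes higher and 33 lower. On chromosome 16 it was 9 of 14 blocks, POLR3K to CFAP20, at 0.0666 to 0.375. Lower runs comprised the last 12 of 21 blocks of chromosome 19, at -0.302 to -0.109, 7 of 17 blocks of chromosome 3 from TRNT1 to CCDC66, at -0.295 to -0.0686, and 5 blocks of chromosome 12, at -0.12 to -0.0654. The unadjusted block medians of the 2 controls did not overlap in 115 of the 303 blocks with the USP37 control higher, and in 115 with it lower. The runs were chosen by block medians of the same libraries, so agreement in direction was largely built in. In the direction of the run, the medians did not overlap in 12 of 12 blocks on chromosome 19 and 7 of 7 on chromosome 3. On chromosome 1 this held for 14 of 17 blocks in the lower run and 10 of 12 in the higher. It held for 8 of 10 on chromosome 14, 8 of 9 on chromosome 15 and 6 of 8 on chromosome 7 (with 1 the other way). Chromosomes 12 and 16 had 3 of 5 and 3 of 9. The guide libraries had the same sign as the controls in every block of the chromosome 15 and chromosome 19 runs, but ranged from -0.0949 to 0.0712 on chromosome 3 and from -0.112 to 0.221 on chromosome 14. HIF1A lies in the run of chromosome 14, VHL in that of chromosome 3 and ARNT in the higher run of chromosome 1. With GC content and length taken out, these genes differed by 0.616, -0.628 and 0.38, larger in size than any block median of their runs. Their guide-library differences, without that step, were -0.22, -0.97 and -0.57. What part the regional shifts have in these genes was not tested. Over the 303 blocks the control and guide-library medians correlated with r = 0.54, again as a description. DNA copy number was not measured here, and its part in these shifts was not tested.

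**Figure D4:**
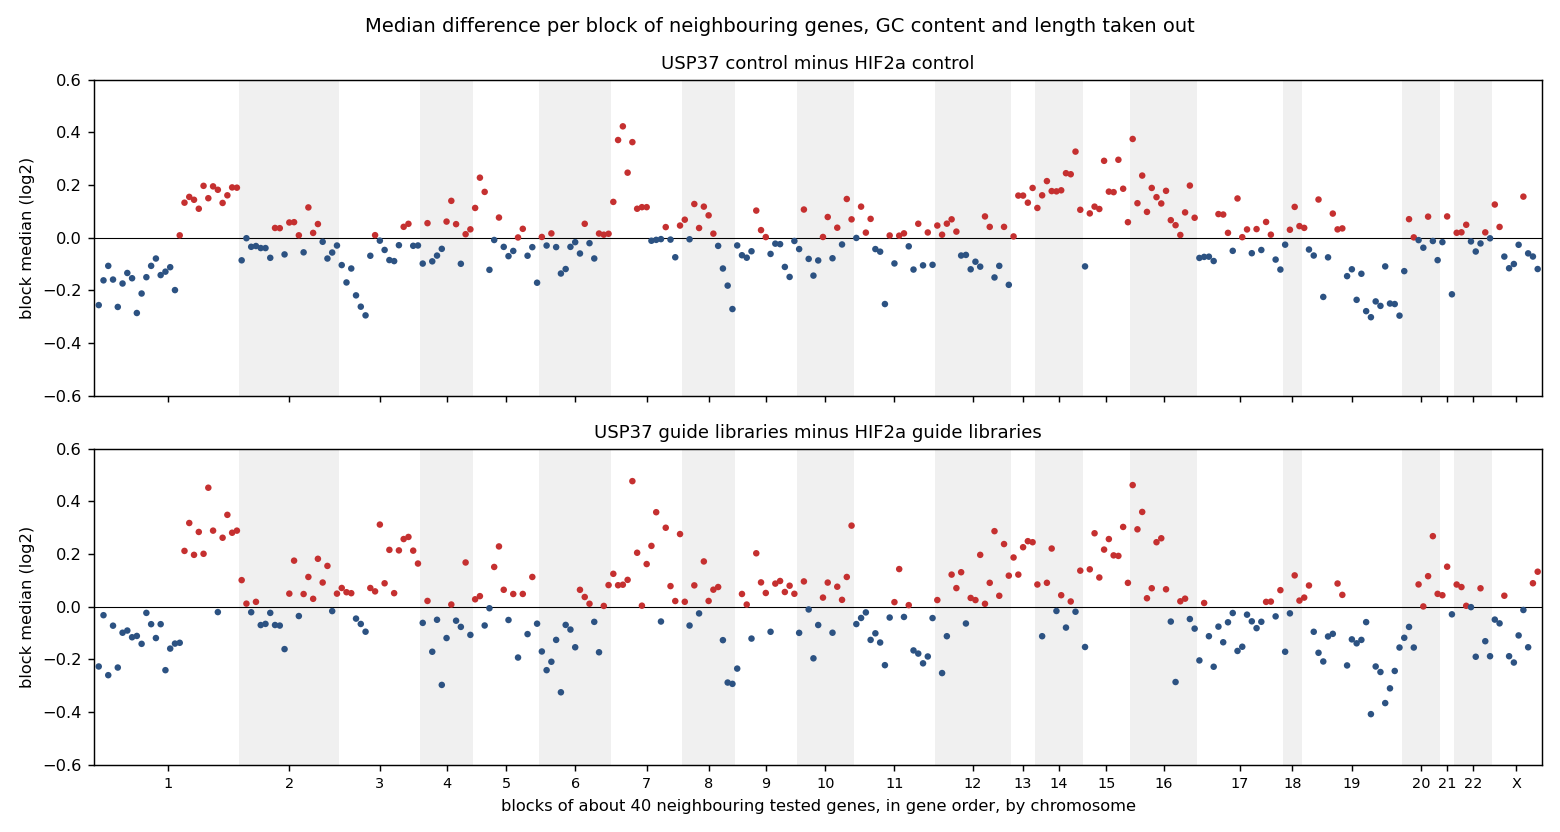
Median log2 difference (vertical axes) of 303 blocks of about 40 neighbouring tested genes in gene order by chromosome (horizontal axis), GC content and transcript length taken out, for the controls (top) and the guide libraries (bottom), red above and blue below 0. Chromosome 1 passes from negative to positive medians in both panels, and chromosome 14 is positive throughout in the controls.

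The control difference moved with the base composition of the genes. Ranked by GC content into 10 equal groups, the genes with the lowest, 30.2% to 38.4%, had a median difference of 0.199, and those with the highest, 61.3% to 73.9%, of -0.296; the guide-library medians of these groups were 0.251 and -0.338. Genes called higher had a median GC content of 43.8%, those called lower 55.6% and all tested genes 47.9%. Taking GC content and length out of each library left 3707 of 4973 called genes called in the same direction. The median differences of the leading lists were then 0.481 for complement and acute phase genes, 0.454 for renal genes, -0.246 for NF-kB targets and -0.426 for YAP/TAZ targets. Among genes named above, COL1A1 then differed by -0.532, BBC3 by -0.408, PCNA by 0.395 and PAX2 by 1.03. Lower calls then numbered 4 among replication genes, 5 among fatty acid genes, 5 among matrix genes and 2 among stress genes, and higher calls 2 among cholesterol genes and 5 among immediate early genes. Chromosome 19 moved from -0.233 to -0.119, chromosome 22 from -0.128 to 0.00842 and chromosome 16 from 0.0416 to 0.143, while chromosome 14 stood at 0.19.

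**Figure D5:**
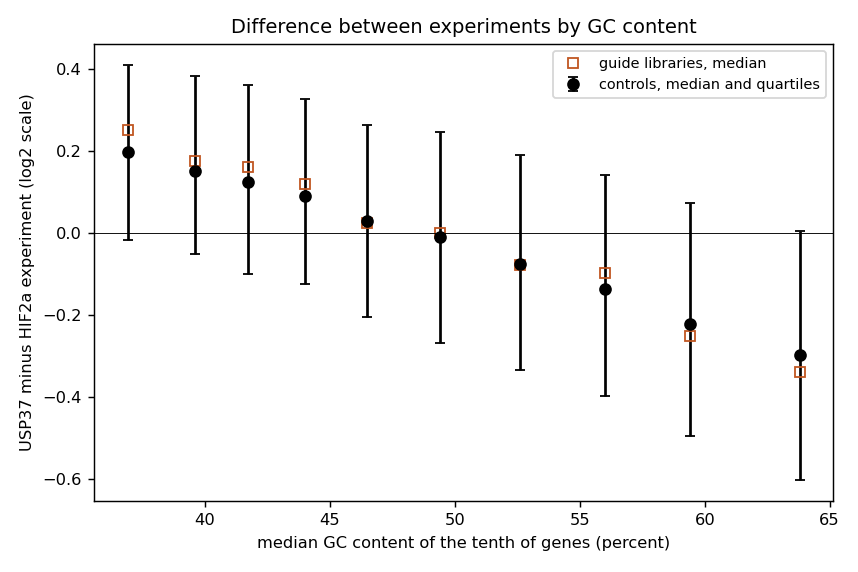
Median log2 difference between the experiments (vertical axis) in 10 equal groups of genes ranked by the GC content of their longest transcript (horizontal axis, percent), with quartiles for the controls as bars and squares for the guide libraries. The control medians fall from 0.199 to -0.296, and the guide-library medians follow the same course.

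Ribosomal RNA also differed. RNA45S4, RNA45S5, RNA28S4 and RNA28S5, near-identical copies of the ribosomal RNA genes whose reads cannot be assigned to 1 copy, gave the largest rises of all, 3.31 to 3.36. RNA45S4 stood at 11.30, 9.94 and 10.06 in the HIF2a control and at 12.99 and 14.60 in the USP37 control, a rise of 3.36 (SE 0.66, adjusted p = 0.000409). These genes were chosen among those whose controls do not overlap. They varied within groups as well, RNA45S4 from 11.04 to 14.12 among the 3 sg9 libraries. The entries RNA18S4, RNA18S5, RNA5-8S4 and RNA5-8S5 stood at the floor of 5.14 in all 17 libraries and were not tested. RNR1, which RefSeq lists as the small mitochondrial ribosomal RNA, rose by 2.08 (SE 0.36), from 12.79 to 13.25 in the HIF2a control to 14.77 and 15.38; the symbol has also been used for a ribosomal DNA cluster, and the table holds no identifier. RNR2, the large mitochondrial one, rose by 0.94 (adjusted p = 0.0102). Of 5 tested long noncoding RNAs on a list, 2 were lower, NEAT1 at -1.30 and NORAD at -0.93, and the list median was 0.255. OIP5-AS1 was called higher at 0.25 and lost the call with the replicate block (limma adjusted p = 0.0755). Polyadenylated RNA was selected for these libraries, and what share of the control difference goes with ribosomal RNA carried over was not tested.

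Markers of the line were present in both controls. All 12 markers of 786-O and renal carcinoma passed the filter on low values, with a mean level of 12.5 to 12.6 in the HIF2a control and 12.6 in the USP37 control; CA12, PAX2 and MET were higher, and KRT8, KRT18, PAX8 and NNMT lower; the list's lower calls numbered 1 without USP37 control library 2 and 2 without library 3. Of 8 markers of the 293T packaging line 1 passed the filter, NEFL, which stood at 11.69, 11.95 and 11.67 against 11.46 and 11.49 (adjusted p = 0.0311, and 0.104 to 0.143 without HIF2a control library 2 or either USP37 control library); the list's mean level was 5.99 to 6.04 against 5.94 to 6.05. None of 7 endothelial markers passed, and of 9 fibroblast markers 2 did, one of them COL1A1.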

How the data were processed

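RNA of 17 libraries of 786-O cells was measured by paired-end sequencing of polyadenylated RNA, per the labels' protocols. Tools listed in the submitters' processing notes are STAR 2.5.2b, Salmon, cutadapt and DESeq2, with the build hg19; no role is stated for any of them. The authors deposited 1 table of 27315 genes, whose values are log2 levels after a variance-stabilising transformation and batch correction; in it, 8023 genes are constant, and the means of libraries with the same replicate number are equal within 6.4e-14. Genes are named as in the table.

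A gene was tested where its mean exceeded 5.143, the 1st percentile over genes, by 1 log2 unit or more; 12484 genes were. limma 3.58.1 (R 4.3.3) was fitted with a mean for each of the 6 groups and no term for the replicate number, which leaves 11 residual degrees of freedom, and its variances were moderated along a trend on expression; p-values were two-sided and adjusted by the Benjamini-Hochberg method over all tested genes, and the pipeline was tested on simulated data. The fit estimates neither the variance that the authors' batch correction removed nor its cost in degrees of freedom. Precision is given by the median SE, 0.134 for the control difference and 0.0847 for the guide-library difference; it cannot be tied to depth. GC content and length are those of the longest GENCODE transcript of a symbol, available for 98.2% of tested genes, and were taken out as a smooth per library. Chromosomes and gene order come from RefSeq by symbol.

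The members and gene lists were chosen with earlier results of these data known. Genes were named by a rule: the 10 largest rises and falls among called genes whose controls do not overlap; up to 4 called members with the largest change per list; the 5 largest in each direction that separate all libraries, and the 5 largest that are not called or opposite between guide libraries; and EPAS1, USP37, HIF1A, ARNT and VHL. Some list members are not reported here. Further list members and Y chromosome genes in the text were chosen after their values had been seen. The alternatives were a replicate block, the controls alone, other filters, no trend, median centring, array weights, chromosome medians taken out, and single libraries left out; taking out GC content and length and leaving out the 3 libraries farthest from their groups were chosen after seeing the data.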

Additional observations from a re-analysis of the deposited data

Results flagged for a closer look

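Genes named for the largest control differences, for control differences not shared with the guide libraries, or as targets and partners of the study were considered. In 9 of them the control difference was called and the guide-library difference was called with the opposite sign. These 9 also passed limma's test of one difference against the other. USP37 is not counted because its control difference of 0.28 was not called. Its guide-library difference of -0.28 was called (limma adjusted p = 0.0161), and the test between them was passed (adjusted p = 0.0222). Over all tested genes, 404 called higher and 267 called lower between the controls were called the opposite way between the guide libraries, members of the gene lists such as C3, PIGR and CTGF among them. The value given is the control difference minus the guide-library difference. It was 4.25 for FCAMR (adjusted p = 1.09e-12), -4.23 for IFI6 (1.95e-11), -4.83 for FLG (4.3e-12), 4.44 for LCN2 (4.46e-12), 2.45 for GDF15 (2.93e-08), 2.27 for FXYD6-FXYD2 (3.18e-07), -3.24 for CPE (5.91e-12), 1.03 for HIF1A (9.55e-06) and 0.899 for ARNT (3.4e-05). The targeting guides enter these values, so a difference in baseline and the effect of a guide cannot be told apart in them.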

How the results depend on the processing

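The count of 5051 genes in the control difference ranged from 3347 to 4704 when 1 control library was left out, lowest without USP37 control library 3, and from 4574 to 5830 under the other settings; with the 5 control libraries alone it was 5136. The guide-library difference between experiments ranged from 8617 to 9089 and the test of the control difference against guide-library difference from 3630 to 5299 with 1 library left out. With a replicate block the counts were 4625, 8694 and 4282. The controls share only the numbers 2 and 3, and the deviations of same-numbered libraries correlated with -0.0215 and -0.0703. These values cannot show whether libraries were paired, because the table had been centred by replicate number. The deviations of the 2 USP37 control libraries also mirror each other. Pairing was therefore not established, and for the same reason the block does not test it. The block changed the call of HIST1H2AC, OIP5-AS1 and NEFL only among the 127 named genes. Over all settings, 1842 of 1886 values of named genes kept their call and direction, 42 lost the call, 2 gained it and none changed sign. Most named genes were chosen for large called differences in these same data, so that keeping the call was likely. With 2 libraries in 1 control, the spread comes mainly from the other groups. Leaving out 1 of the 2 leaves a lone library assumed to vary like those groups.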
